A study of Mus musculus with 12 samples.

Results

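A set of 9 genes of neutrophil granules and of the neutrophil's cytosolic alarm proteins was followed across 3 cell types isolated from mouse liver, from mice given the carcinogen diethylnitrosamine (DEN) and from untreated mice. They were S100a8 and S100a9 (the alarmins), Mpo and Elane (azurophil granules), Ltf, Camp, Ngp and Lcn2 (specific granules), and Retnlg, a secreted resistin-like protein of mature neutrophils. They were chosen by gene symbol, and each was represented by its probe of highest mean across the 12 arrays, which gave 9 of the 19053 genes with a named probe. All 9 were among the 12462 genes tested. Mpo had 4 probes, Ltf 2, and the other 7 genes 1 each.

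The male C57Bl/6 mice, marked WT in the sample titles, were given 25 mg/kg DEN by intraperitoneal injection when 25 days old and followed for 9 months, and age-matched controls were left untreated. DEN is activated by hepatocytes, and when given to young mice it gives rise to liver tumours later. RNA came from hepatocytes, from macrophages (called MP or MΦ in the labels) and the endothelium of the sinusoids, the liver's capillaries (SEC). Each DEN preparation pooled the RNA of 3 to 4 animals. How the cells were isolated, and whether from tumour or surrounding tissue, is not stated in the sources at hand. Each of the 6 groups (untreated and DEN hepatocytes, macrophages and SEC) held 2 Illumina bead arrays, and values are the authors' normalized log2 intensities, on which an array's median was 7.41 and its maximum 15.19. Nothing in the labels tells whether replicate arrays were made from different pools, so the p-values rest on the spread of these arrays alone, which may be technical.

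Neutrophils fill their granules in the order in which they mature in the bone marrow. Promyelocytes make the azurophil granules, which carry the peroxide-using enzyme myeloperoxidase (Mpo) and the serine protease neutrophil elastase (Elane), and transcription of these genes has ended by the time the cell is mature. Myelocytes and metamyelocytes make the specific granules, with the iron-binding lactoferrin (Ltf), the cathelicidin antimicrobial peptide (Camp), neutrophilic granule protein (Ngp) and the siderophore-binding lipocalin 2 (Lcn2). S100a8 and S100a9 encode the subunits of calprotectin, a calcium- and zinc-binding complex that fills the neutrophil cytosol, is also made by monocytes, and acts as an alarm signal on Toll-like receptor 4 once released. Lcn2 is in addition an acute-phase gene that hepatocytes themselves induce in inflammation.

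Several of these genes are neighbours. S100a8 and S100a9 lie next to each other on chromosome 3, with 0 coding genes between them, and Elane lies next to the azurophil protease gene Prtn3 on chromosome 10. Ltf, Camp and Ngp share chromosome 9, with 8 coding genes between Camp and Ngp and 20 between Ngp and Ltf (RefSeq, assembly GRCm38.p6). Promoters (250 bases before to 50 after the start) were found for all 9. A word bound by the C/EBP factors of granulocytes, TTGCNNAA on either strand, occurred in 5 of the 9 (S100a9, Lcn2, Ltf, Ngp and Retnlg) and in 10.8% of 32851 mouse promoters. The core word of PU.1, the myeloid master factor, GAGGAA on either strand, occurred in 5 (S100a8, Lcn2, Ltf, Mpo and Elane) and in 28.3% of promoters. The Camp promoter held neither. A match to a word describes the sequence and is not a measured binding site. The 4 promoters printed here, with C/EBP and PU.1 words in capitals, belong to the genes with the largest differences in each direction between the DEN hepatocyte and the DEN macrophage preparations. Ngp and Retnlg, higher in the DEN macrophages, carry C/EBP words without a PU.1 word. Mpo and Elane, higher in the DEN hepatocytes, carry PU.1 words without a C/EBP word. This split was seen after the levels were known, was not tested, and did not hold over the 9 genes. S100a8 carries PU.1 words without a C/EBP word, like Mpo and Elane, yet was lower in the DEN hepatocytes (-0.92). S100a9, also lower there, carries a C/EBP word without a PU.1 word. Camp holds neither word, and Lcn2 and Ltf hold both. The promoters of Ngp, Retnlg, Mpo and Elane are at chr9:110419558-110419857, chr16:48872358-48872657, chr11:87793534-87793833 and chr10:79886062-79886361 in that order, all on the plus strand of GRCm38.p6 and read 5′ to 3′ from RefSeq.
Ngp: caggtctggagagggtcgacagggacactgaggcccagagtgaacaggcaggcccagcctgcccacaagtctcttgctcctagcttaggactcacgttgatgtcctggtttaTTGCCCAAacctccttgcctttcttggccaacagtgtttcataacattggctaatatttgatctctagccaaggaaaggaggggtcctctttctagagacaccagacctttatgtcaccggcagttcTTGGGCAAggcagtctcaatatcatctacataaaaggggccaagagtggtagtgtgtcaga
Retnlg: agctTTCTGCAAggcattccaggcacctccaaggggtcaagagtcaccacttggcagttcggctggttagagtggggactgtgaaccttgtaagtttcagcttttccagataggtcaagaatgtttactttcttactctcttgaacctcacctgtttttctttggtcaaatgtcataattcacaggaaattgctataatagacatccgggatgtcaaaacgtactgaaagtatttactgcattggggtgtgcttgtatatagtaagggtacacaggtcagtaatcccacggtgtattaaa
Mpo: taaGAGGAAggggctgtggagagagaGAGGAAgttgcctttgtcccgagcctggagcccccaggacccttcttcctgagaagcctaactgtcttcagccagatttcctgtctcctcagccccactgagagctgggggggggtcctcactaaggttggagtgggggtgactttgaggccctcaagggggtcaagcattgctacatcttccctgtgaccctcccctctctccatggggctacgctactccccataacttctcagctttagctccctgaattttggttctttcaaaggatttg
Elane: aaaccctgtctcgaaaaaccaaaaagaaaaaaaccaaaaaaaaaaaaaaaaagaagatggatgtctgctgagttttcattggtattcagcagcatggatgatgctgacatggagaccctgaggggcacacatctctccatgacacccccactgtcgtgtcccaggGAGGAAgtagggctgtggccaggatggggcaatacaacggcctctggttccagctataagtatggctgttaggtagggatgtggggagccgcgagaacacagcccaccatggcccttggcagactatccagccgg

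The markers of the cell types were looked at first. The mean level of 10 hepatocyte markers was 12.10 and 12.14 on the arrays of untreated hepatocytes and 10.73 and 10.69 on those of DEN hepatocytes, and it ranged from 8.06 to 9.14 across the macrophages and SEC. Kupffer cell markers (9 genes) averaged 12.88 and 12.91 in untreated but 8.71 and 8.79 in DEN macrophages, where 9 of 9 had fallen. That is close to the 8.68 to 9.21 of the hepatocyte preparations, so the DEN macrophages are called so here by their label and not by Kupffer cell markers. SEC markers (10 genes) averaged 12.14 to 12.17 in both SEC groups, but Kupffer cell markers were high there too, at 11.67 and 11.66 in untreated and 11.57 and 11.54 in DEN SEC, nearer to untreated than to DEN macrophages. A list of 12 neutrophil markers that holds none of the 9 genes had 10 measured, among them Cxcr2, Csf3r, Mmp8 and Il1r2. This list repeats genes of the granule and mature neutrophil lists counted below, and its counts are not separate from theirs. Its mean moved from 7.80 on both arrays to 8.37 and 8.27 with DEN in hepatocytes, from 7.84 and 7.83 to 9.90 and 9.94 in macrophages, and from 7.53 and 7.54 to 7.69 and 7.68 in SEC. In RNA from a whole preparation, fewer or more cells of a type and less or more RNA per cell cannot be told apart. The neutrophil marker Ly6g was not analysed here.

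**Figure D1:**
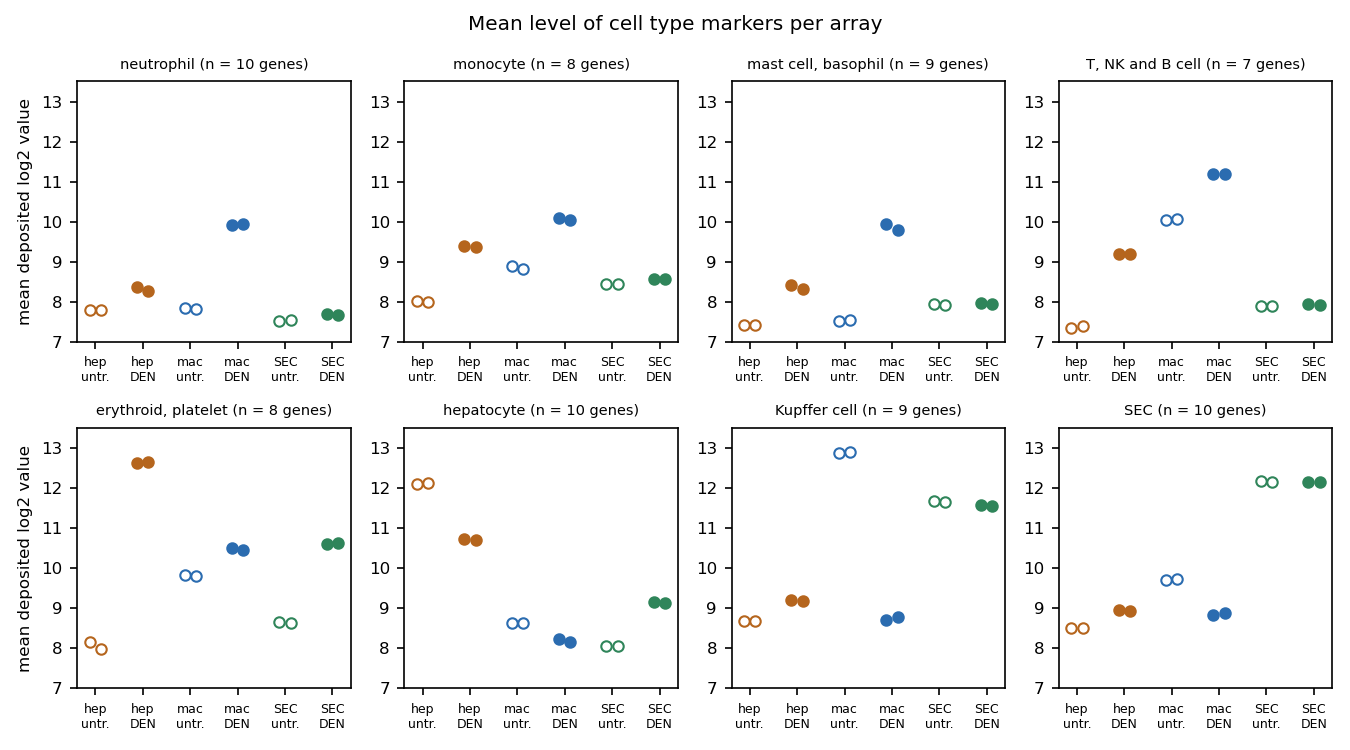
Mean deposited log2 value of 8 cell type marker lists on each of the 12 arrays (points; hep, hepatocytes; mac, macrophages; untr., untreated; open, untreated; filled, DEN). Neutrophil markers, without the 9 genes described, were highest in DEN macrophages (9.90 and 9.94), and Kupffer cell markers averaged 12.88 and 12.91 in untreated but 8.71 and 8.79 in DEN macrophages.

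In untreated mice, transcripts of the alarmins were plentiful in macrophages and present in SEC, while those of the granule proteins lay at or near background in every cell type. Background on an array was taken as the 95th percentile of 1501 olfactory and vomeronasal receptor probes, which was 7.50 and 7.51 in untreated hepatocytes and 7.43 to 7.44 in untreated macrophages and SEC. S100a8 stood at 12.15 and 12.19 in untreated macrophages, at 10.16 and 10.09 in SEC and at 7.38 and 7.44, below background, in hepatocytes. S100a9 followed it with 11.35 and 11.30 in macrophages, 9.47 and 9.52 in SEC and 7.36 and 7.49, again below background, in hepatocytes. The SEC arrays thus lay between those of macrophages and hepatocytes for both genes, and their Kupffer cell marker mean of 11.67 and 11.66 lay between as well, whose part in the SEC levels was not tested. By limma with Benjamini-Hochberg adjustment over all genes tested, S100a8 was at least 25.4-fold higher in macrophages than in hepatocytes (adjusted p = 2.49e-12) and at least 6.15-fold higher in SEC than in hepatocytes (adjusted p = 2.7e-10). It was 2.05 ± 0.09 (SE) log2 units higher in macrophages than in SEC (adjusted p = 1.13e-08). A fold written with "at least" was computed against the background of the lower group, since that group was below background on each of its arrays.

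Retnlg was the third gene with a level that set the untreated cell types apart. It measured 8.23 and 8.24 in macrophages, 7.63 and 7.67 in SEC and 7.38 and 7.35, below background, in hepatocytes, and the macrophages exceeded SEC by 0.58 ± 0.05 (adjusted p = 3.95e-06). Lcn2 was low but above background in all 3, with 7.84 and 7.80 in hepatocytes, 7.78 and 7.72 in macrophages and 7.57 and 7.59 in SEC. Mpo, between 7.36 and 7.43 on the 6 untreated arrays, was below background on both arrays of each cell type. Ltf, Camp, Ngp and Elane lay between 7.34 and 7.66 in all untreated groups. In all, 5 of the 9 genes differed between untreated hepatocytes and macrophages (64.4% of all genes tested did), 5 between hepatocytes and SEC (67.2%) and 3 between macrophages and SEC (45.4%), none of them a share above that of all genes. The calls of Ltf and Camp against hepatocytes rested on differences of 0.16 to 0.20 near background and were lost in several settings.

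**Figure D2:**
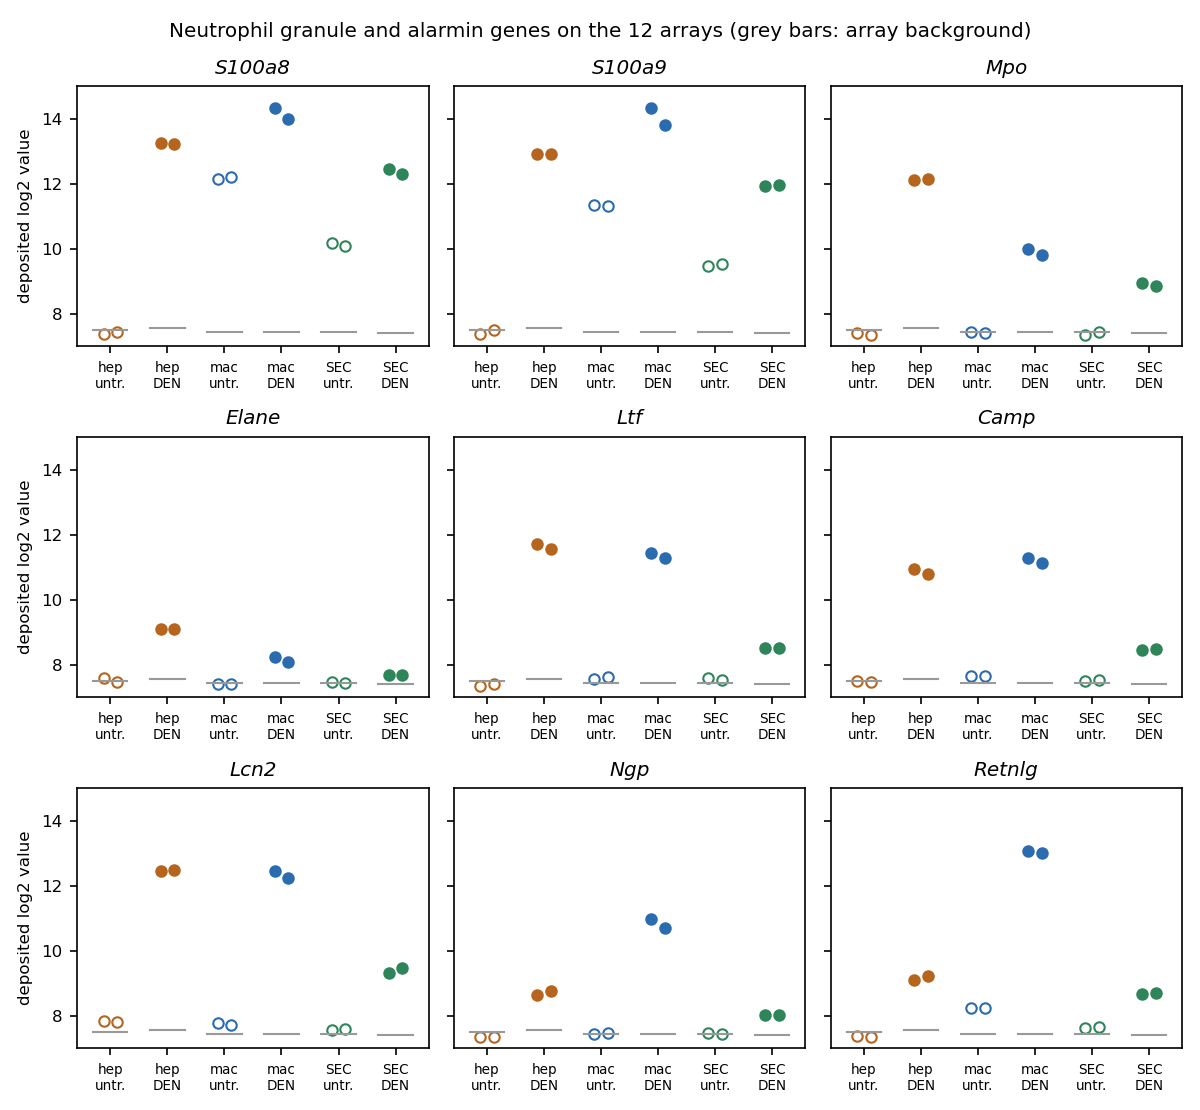
Deposited log2 value of each of the 9 genes on the 12 arrays (points; hep, hepatocytes; mac, macrophages; untr., untreated; open, untreated; filled, DEN; grey bars, mean background of the group's arrays). Only S100a8 and S100a9 exceeded a value of 9 on untreated arrays, and Mpo was below background on each of those 6.

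With DEN, all 9 genes rose in the hepatocyte preparation, a comparison in which 31.7% of all genes tested were called higher and 36.0% lower. Their median change was 4.24 on the log2 scale, against -0.02 for all genes tested. The alarmins rose by over 5 log2 units, Mpo, Lcn2, Ltf and Camp by 3 to 5, and Retnlg, Elane and Ngp by less than 2. Mpo was above background in DEN groups only and was tested for that reason. Its place in the counts of genes that rose, here and in the other cell types, is a description. Each change is the DEN mean less the untreated mean ± SE (n = 2 arrays in either group), with 1 spread estimated from all 6 groups.

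S100a8 measured 13.25 and 13.23 in DEN hepatocytes, against 7.38 and 7.44 in untreated ones. The change was 5.83 ± 0.09, at least 53.2-fold (adjusted p = 1.85e-12). S100a9 measured 12.90 and 12.92 against 7.36 and 7.49, at least 42.3-fold higher (adjusted p = 2.29e-11). Both subunits of calprotectin thus went from below background to levels far above it on both arrays. The azurophil gene Mpo measured 12.12 and 12.14 in DEN hepatocytes against 7.41 and 7.36, a rise of 4.74 ± 0.06 and at least 24.6-fold (adjusted p = 8.22e-13). Since Mpo was tested because it was high with DEN, this p-value is a description. Its second probe gave 11.20 and 11.11 against 7.37 and 7.36, and its dimmer probes 8.36 and 8.14, and 7.82 and 7.71, in DEN hepatocytes, so all 4 probes lay higher in the DEN arrays but by different amounts. Elane, the other azurophil gene, measured 9.11 on both DEN arrays against 7.60 and 7.47, a change of 1.57 ± 0.06 (adjusted p = 1.53e-09).

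The specific granule genes followed. Lcn2 rose from 7.84 and 7.80 to 12.44 and 12.48, by 4.64 ± 0.08 or 24.9-fold (adjusted p = 2.62e-12). Ltf rose from 7.36 and 7.42, below background, to 11.70 and 11.56, at least 17.5-fold (adjusted p = 1.38e-12). Its second probe did not show the change, with 7.41 and 7.33 in DEN against 7.36 and 7.37 in untreated hepatocytes. Camp rose from 7.51 and 7.47 to 10.95 and 10.80, at least 10.3-fold (adjusted p = 7e-12). Ngp had a smaller rise, from 7.34 and 7.36 to 8.63 and 8.75, at least 2.27-fold (adjusted p = 4.77e-08). Retnlg reached 9.10 and 9.23 from 7.38 and 7.35, at least 3.15-fold higher (adjusted p = 1.64e-10). For all 9 genes both DEN arrays lay above both untreated ones, as they did for 37.1% of all genes tested.

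Other genes of the neutrophil were less uniform in hepatocytes. Some of those listed, like Mpo, were above background on both arrays of a DEN group but of no untreated group, so that they were tested because they were high with DEN and their counts are a description. They were 3 of 8 azurophil and progenitor genes (Prtn3, Ctsg and Ms4a3), 3 of 15 specific and gelatinase granule genes and 6 of 20 mature neutrophil genes. Among the markers they were 3 of 10 neutrophil, 7 of 9 mast cell and basophil and 1 of 8 monocyte markers. Of the granulocyte transcription factors described below it was 1 of 8. Of 8 further azurophil granule and progenitor genes measured, 6 rose and 1 fell (median change 0.70). Prtn3, proteinase 3, rose by 2.86 ± 0.08, at least 6.69-fold, the granule protease Ctsg by 1.45 ± 0.07, at least 2.42-fold, and the granule proteoglycan core Srgn by 2.77 ± 0.12, while the chaperone Calr fell by 1.73. Among 15 other specific and gelatinase granule genes 10 rose and 1 fell (median 0.57). The rises included the protease inhibitor Slpi (6.43 ± 0.06), lysozyme Lyz2 (4.91 ± 0.07) and the chitinase-like Chil3 (3.85 ± 0.06, at least 13.6-fold), all of which other cells can make too. The gelatinase Mmp9 rose by 1.18 ± 0.05, and the neutrophil collagenase Mmp8 was below background in both groups (-0.01 ± 0.04). Of 20 surface and cytosol genes of mature neutrophils 11 rose and 2 fell (median 0.35). The G-CSF receptor Csf3r rose by 1.45 ± 0.10, the decoy receptor Il1r2 by at least 3.13-fold and the lectin Clec4d by at least 9.40-fold, both from below background, while the chemokine receptor Cxcr2 did not pass (0.29 ± 0.14, adjusted p = 0.0797).

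Other cell type markers moved in the same arrays. Of 8 erythroid and platelet markers 8 rose in DEN hepatocytes, with a list mean of 8.16 and 7.99 in untreated and 12.62 and 12.64 in DEN arrays, and the haemoglobin gene Hba-a1 rose by 7.03 ± 0.10. Monocyte markers (6 of 8 higher, mean from 8.010 and 8.003 to 9.38 and 9.36), lymphocyte markers (6 of 7 higher, from 7.34 and 7.39 to 9.18 and 9.19) and mast cell and basophil markers (8 of 9 higher, from 7.42 on both arrays to 8.43 and 8.32) were higher too. Of 10 SEC markers 6 rose and 1 fell (8.51 and 8.50 to 8.97 and 8.93), and of 9 Kupffer cell markers 4 rose and 2 fell. Of the 10 neutrophil markers 5 rose and 1 fell (median 0.26), and 8 and 5 of them were above background on the DEN arrays against 3 and 2 on the untreated ones. The part of these cells in the rise of the 9 genes was not tested. With each array's background subtracted first, the 9 changes in hepatocytes were 3.95 to 9.22 in place of 1.34 to 5.83. With the mean of all probes of a gene, Mpo changed by 2.45 and Ltf by 2.12.

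In macrophages all 9 genes also rose with DEN, where 18.6% of all genes tested were called higher and 24.3% lower, with a median change of 3.37 against -0.02 for all genes. The order differed from that in hepatocytes: Retnlg, Lcn2, Ltf, Camp and Ngp rose by 3 to 5 log2 units, and the alarmins, already high in untreated macrophages, and the azurophil genes by less than 3.

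Retnlg measured 13.064 and 13.003 in DEN macrophages against 8.23 and 8.24 in untreated ones, a rise of 4.80 ± 0.05 or 27.9-fold (adjusted p = 6.58e-13). Lcn2 rose from 7.78 and 7.72 to 12.45 and 12.22, by 4.59 ± 0.08 (adjusted p = 7.54e-12). Both genes were at least 4 log2 units apart between the groups on every array. Ltf rose from 7.57 and 7.62 to 11.44 and 11.29, by 3.77 ± 0.06 (adjusted p = 8.25e-12). Camp rose from 7.64 and 7.66 to 11.29 and 11.13, by 3.56 ± 0.07 (adjusted p = 1.27e-11). Ngp rose from 7.45 and 7.47 to 10.97 and 10.69, by 3.37 ± 0.08 (adjusted p = 9.66e-11). The 4 specific granule genes thus all rose by more than 3 units in macrophages, Ngp among them, which had risen by 1.34 in hepatocytes. The second Ltf probe, at 7.28 and 7.38 in untreated macrophages, reached 7.85 and 7.89.

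The alarmins started from higher levels. S100a8 rose from 12.15 and 12.19 to 14.325 and 13.997, by 1.99 ± 0.09 (adjusted p = 1.91e-08). S100a9 rose from 11.35 and 11.30 to 14.32 and 13.80, by 2.74 ± 0.12 (adjusted p = 1.5e-08). The SD of the DEN macrophage arrays was 0.23 for S100a8 and 0.36 for S100a9, against at most 0.12 in the other groups. The levels neared the arrays' maximum of 15.19, and whether that ceiling limited the changes was not tested. Mpo, tested because it was high with DEN, rose from 7.43 and 7.42, below background, to 9.98 and 9.79, at least 5.48-fold (adjusted p = 1.93e-10, a description). Elane rose from 7.42 on both arrays, below background, to 8.23 and 8.07, at least 1.65-fold (adjusted p = 2.52e-06). Both DEN arrays lay above both untreated ones for each of the 9 genes and for 32.2% of all genes tested.

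The other neutrophil genes moved with them in macrophages. Of the 20 surface and cytosol genes of mature neutrophils, 6 of which were tested because they were high with DEN, 19 rose and 0 fell (median 1.84). The largest rises in that list were those of G0s2, an inhibitor of lipolysis (4.75 ± 0.10), Il1r2 (4.72 ± 0.09), Clec4d (3.91 ± 0.08) and the niacin receptor Hcar2 (3.79 ± 0.07). Csf3r rose by 2.35 ± 0.10 and Cxcr2 by 1.60 ± 0.14. Of the 15 other specific and gelatinase granule genes 12 rose and 1 fell (median 1.66), among them Chil3 (4.03 ± 0.06), Slpi (3.94 ± 0.06), the peptidoglycan-binding Pglyrp1 (2.54 ± 0.07), Mmp9 (1.73 ± 0.05) and Mmp8 (0.63 ± 0.04, at least 1.49-fold). Of the 8 other azurophil and progenitor genes 5 rose and 2 fell (median 0.74). Prtn3 rose by 1.23 ± 0.08, at least 2.27-fold, and Ctsg by 0.86 ± 0.07, at least 1.73-fold, while Ctsc, the protease that activates the granule serine proteases, fell by 1.88.

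All 10 neutrophil markers, genes already counted in those lists, rose in macrophages (median 1.84). All 10 were above background on both DEN arrays, and 3 of them were tested because they were high with DEN. Mast cell and basophil markers rose in 7 of 9 cases (mean from 7.53 and 7.55 to 9.94 and 9.80). That count is a description, since 7 of these 9 were tested because they were high with DEN, as was 1 of 8 monocyte markers. Erythroid and platelet markers rose in 7 of 8 cases (9.83 and 9.81 to 10.51 and 10.46), monocyte markers in 6 of 8 with 1 lower (8.88 and 8.83 to 10.09 and 10.05) and lymphocyte markers in 6 of 7 (10.03 and 10.05 to 11.19 and 11.20). Kupffer cell markers fell in 9 of 9, with Clec4f down by 5.32. SEC markers fell in 6 of 10 with 1 higher (9.71 and 9.72 to 8.82 and 8.88), and hepatocyte markers in 4 of 10 (8.63 on both arrays to 8.24 and 8.16). The part of these shifts in the rise of the 9 genes was not tested. With background subtracted, the 9 changes were 2.03 to 6.69 in place of 0.73 to 4.80, and with the mean of all probes Mpo changed by 1.18 and Ltf by 2.15.

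In SEC 8 of the 9 genes rose, in a comparison where 2.56% of all genes tested were called higher and 0.995% lower (319 and 124 genes, and 364 and 74 with cyclic loess). The median change was 1.04, against -0.02 for all genes. S100a9 and S100a8 had the largest changes of the 9, followed by Lcn2, and Elane did not pass. Both DEN arrays lay above both untreated ones for each of the 9 genes and for 19.0% of all genes tested.

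S100a8 rose from 10.16 and 10.09 to 12.46 and 12.29 in SEC, by 2.25 ± 0.09 (adjusted p = 6.6e-08). S100a9 rose from 9.47 and 9.52 to 11.94 and 11.97, by 2.46 ± 0.12 (adjusted p = 3.18e-07). Both stood in DEN SEC at or somewhat above their level in untreated macrophages, a pair of groups that was not tested. Lcn2 rose from 7.57 and 7.59 to 9.30 and 9.47, by 1.80 ± 0.08 (adjusted p = 8.59e-08). Mpo, tested because it was high with DEN, rose from 7.36 and 7.43, below background, to 8.93 and 8.86, at least 2.76-fold (adjusted p = 8.59e-08, a description). Its second probe gave 8.33 and 8.23 against 7.38 and 7.42, and the dimmer ones stayed at or below 7.51, so that the mean of all probes changed by 0.66. Retnlg rose from 7.63 and 7.67 to 8.67 and 8.71, by 1.04 ± 0.05 (adjusted p = 3.67e-07). Ltf, from 7.58 and 7.55 to 8.51 and 8.52, and Camp, from 7.50 and 7.54 to 8.45 and 8.48, rose by 0.96 ± 0.06 and 0.94 ± 0.07. The second Ltf probe did not show the change, with 7.42 and 7.44 in DEN against 7.43 and 7.36 in untreated SEC, and the mean of both changed by 0.49. Ngp rose from 7.48 and 7.44 to 8.02 and 8.04, by 0.57 ± 0.08 (adjusted p = 0.0015). Elane, at 7.46 and 7.44 in untreated and 7.70 and 7.69 in DEN SEC, was higher on the DEN arrays, but its change of 0.25 ± 0.06 did not pass (adjusted p = 0.0574), and it passed in several other settings.

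The medians of the wider neutrophil lists in SEC were near 0, though more of their genes were called higher than the 2.56% of all genes in 2 of the 3 lists. Of the 20 surface and cytosol genes 4 rose and 0 fell (median 0.08), with Il1r2 at 0.52 ± 0.09 and Clec4d at 0.42 ± 0.08, of the 15 other specific and gelatinase granule genes 4 rose and 0 fell (median 0.08), with the haptoglobin gene Hp, also an abundant hepatocyte product, at 2.43 ± 0.07, and of the 8 other azurophil and progenitor genes 0 passed. Prtn3 changed by 0.28 ± 0.08 (adjusted p = 0.0827), Csf3r and Cxcr2 by 0.01 each, Mmp9 by 0.08 ± 0.05 and Mmp8 by -0.03 ± 0.04. Of the 10 neutrophil markers 2 rose (median 0.08). Markers of other cells moved in the same arrays: 6 of 8 erythroid and platelet markers rose (mean from 8.65 and 8.64 to 10.61 and 10.63), and 4 of 10 hepatocyte markers (8.07 and 8.06 to 9.14 and 9.13), led by Apoa1 (3.65 ± 0.12). Of 8 monocyte markers 2 rose, of 7 lymphocyte markers 1 rose, of 9 mast cell and basophil markers 0 passed, and of 9 Kupffer cell markers 1 fell. Their part in the rise of the 9 genes was not tested. With background subtracted, the 9 changes in SEC were 1.48 to 4.30 in place of 0.25 to 2.46.

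**Figure D3:**
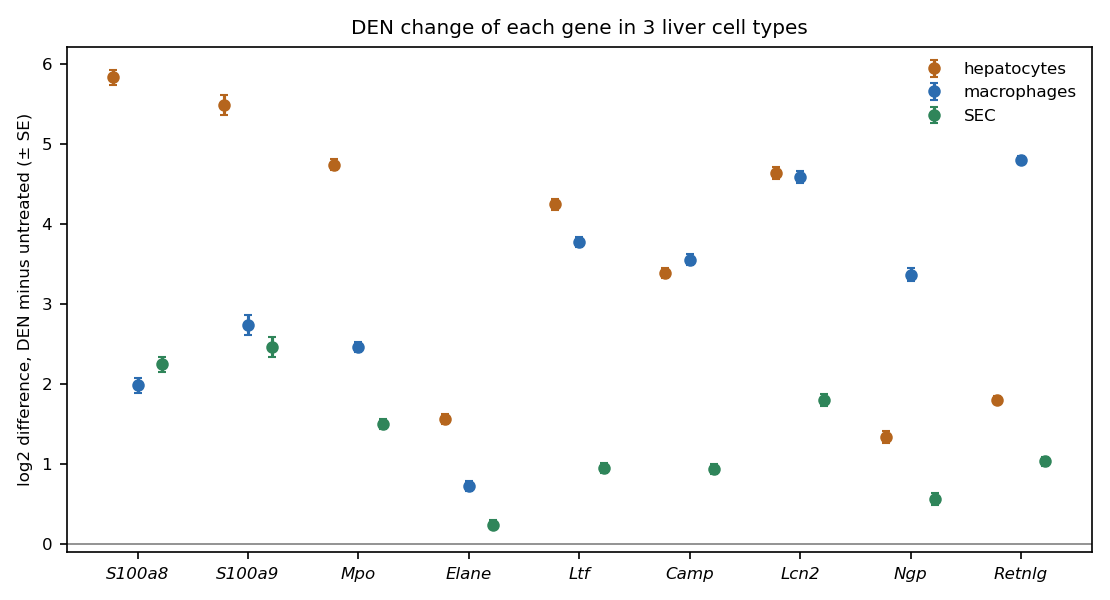
Log2 difference, DEN minus untreated, of each of the 9 genes in hepatocytes, macrophages and SEC (points; bars, SE from limma; 2 arrays a group). S100a8, S100a9 and Mpo changed most in hepatocytes, Ngp and Retnlg most in macrophages, and Lcn2 by 4.64 and 4.59 in hepatocytes and macrophages.

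The size of the DEN change was compared between cell types as an interaction in the same fit. Between hepatocytes and macrophages it differed for 7 of the 9 genes (63.0% of all genes tested). It was larger in hepatocytes for S100a8 (by 3.84 ± 0.13), S100a9 (2.75 ± 0.18), Mpo (2.28 ± 0.09), Elane (0.84 ± 0.09) and Ltf (0.47 ± 0.09), and larger in macrophages for Retnlg (-3.00 ± 0.08) and Ngp (-2.03 ± 0.11). Lcn2 (0.05 ± 0.11) and Camp (-0.17 ± 0.09) did not pass. With both probes averaged, the Ltf difference was lost and turned (-0.0291, adjusted p = 0.726). Against SEC the change was larger in hepatocytes for 9 of 9 genes (59.6% of all genes differed), by 0.76 for Retnlg to 3.58 for S100a8. Against SEC it was larger in macrophages for 7 of 9 (33.0% of all genes differed), by 0.48 for Elane to 3.76 for Retnlg, and the alarmins did not pass (S100a8 -0.26 ± 0.13, S100a9 0.28 ± 0.18). These comparisons share the arrays of a cell type and are not independent of each other.

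The DEN groups themselves were set side by side next, since each of the 9 genes was above background on all their arrays, Elane in SEC only just (7.70 and 7.69 against 7.43 and 7.42). Between DEN hepatocytes and DEN macrophages 8 of the 9 differed (67.4% of all genes tested), 3 higher and 5 lower in hepatocytes. The azurophil genes were higher in hepatocytes: Mpo by 2.24 ± 0.06, or 4.72-fold (12.12 and 12.14 against 9.98 and 9.79, adjusted p = 1.38e-10), and Elane by 0.95 ± 0.06 (9.11 on both against 8.23 and 8.07, adjusted p = 1.18e-07). The specific granule genes were divided. Ltf was higher in hepatocytes by 0.27 ± 0.06, Lcn2 did not pass (0.13 ± 0.08, adjusted p = 0.175, its arrays overlapping), Camp was lower by 0.33 ± 0.07 and Ngp lower by 2.14 ± 0.08 (adjusted p = 1.13e-09). The Ltf difference turned to -0.12 (adjusted p = 0.0515) when both its probes were averaged. With background subtracted it did not pass (0.284, adjusted p = 0.0804). The alarmins were lower in hepatocytes, S100a8 by 0.92 ± 0.09 and S100a9 by 1.15 ± 0.12. Retnlg, the gene of mature neutrophils, was 14.6-fold lower in hepatocytes (9.10 and 9.23 against 13.064 and 13.003, adjusted p = 5.15e-13).

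The other genes of each class were lined up the same way. Of the 20 surface and cytosol genes of mature neutrophils 18 were lower and 1 higher in DEN hepatocytes than in DEN macrophages (median -1.59, all genes -0.06), G0s2 by -3.92 ± 0.10, Il1r2 by -3.09 ± 0.09, Csf3r by -2.53 ± 0.10 and Cxcr2 by -1.48 ± 0.14, and the exception was Wfdc21 (1.18). Of the 8 other azurophil and progenitor genes 3 were higher and 4 lower (median -0.11). Those higher were Prtn3 (1.64 ± 0.08), Ctsg (0.56 ± 0.07) and the progenitor membrane protein Ms4a3 (0.24), and Srgn (-2.12 ± 0.12) and Cst7 (-1.49 ± 0.05, at least 2.64-fold, below background in hepatocytes) led those lower. The class was thus divided, with Mpo and the granule serine protease genes Elane, Prtn3 and Ctsg on the side of the hepatocytes. Of the 15 other specific and gelatinase granule genes 4 were higher and 9 lower (median -0.62), with Mmp9 at -2.11 ± 0.05, Pglyrp1 at -2.17 ± 0.07 and Mmp8 at least 1.36-fold lower, below background in hepatocytes, and with Hp (2.90 ± 0.07) and Arg1 (2.15 ± 0.09), both also made by hepatocytes, among those higher. The 10 neutrophil markers, which are also in these lists, were lower in hepatocytes in 9 cases and higher in 1.

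**Figure D4:**
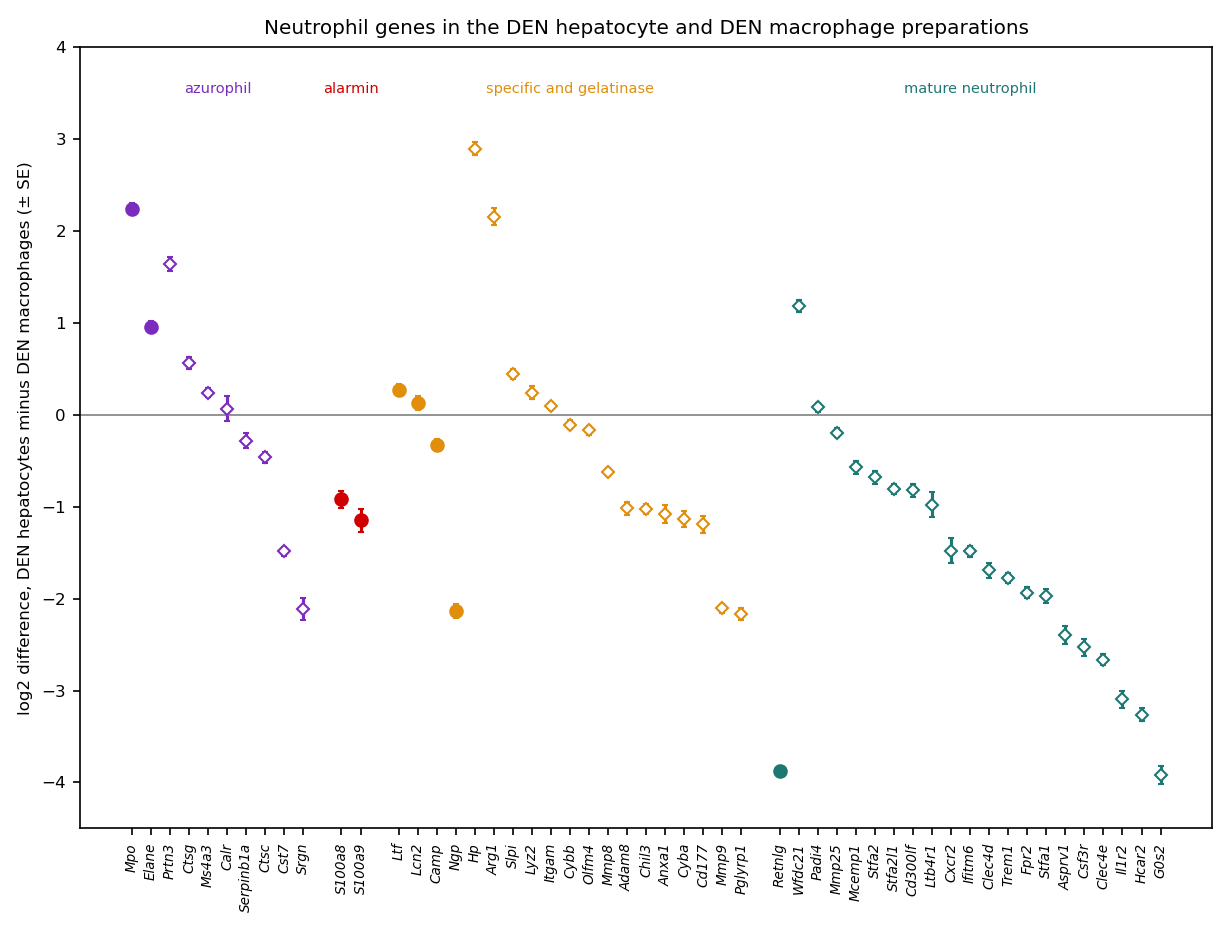
Log2 difference between the DEN hepatocyte and DEN macrophage groups (± SE from limma, n = 2 arrays per group) for the 9 genes (filled circles) and the other measured genes of their classes (open diamonds), sorted within each class. Of the open diamonds, 3 of 8 azurophil genes were higher and 4 lower in hepatocytes, 4 of 15 specific and gelatinase genes higher and 9 lower, and 1 of 20 mature neutrophil genes higher and 18 lower.

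DEN SEC stood lowest of the 3 DEN groups for each of the 9 genes. All 9 were higher in DEN hepatocytes than in DEN SEC (67.0% of all genes differed), from 0.47 ± 0.05 for Retnlg to 3.23 ± 0.06 for Mpo, and all 9 were higher in DEN macrophages than in DEN SEC (53.9%), from 0.46 ± 0.06 for Elane to 4.34 ± 0.05 for Retnlg. By mean over the 6 groups, 4 of the genes (Mpo, Elane, Ltf and Lcn2) were highest in DEN hepatocytes and 5 (S100a8, S100a9, Camp, Ngp and Retnlg) in DEN macrophages. The place of Lcn2 and Ltf is uncertain. Lcn2 did not differ between the 2 groups (adjusted p = 0.175 by limma), and the Ltf difference turned with both probes averaged (-0.12). The order for S100a8 ran from DEN macrophages through DEN hepatocytes, DEN SEC, untreated macrophages and untreated SEC to untreated hepatocytes, and that for S100a9 was the same. For the other 7 genes, too, the 3 DEN groups came before the 3 untreated ones.

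Some of the 9 genes had closely like profiles across the 6 group means, given as a description because the means share arrays and a common DEN rise. S100a8 and S100a9 had a Pearson r of 0.991, Lcn2, Ltf and Camp 0.993 to 0.994 with each other, Ngp and Retnlg 0.988, and Mpo and Elane 0.979. Between other pairs r ran from 0.421 for Elane and Retnlg through 0.605 for Mpo and Ngp and 0.891 for Camp and Ngp to 0.934 for Ltf and Mpo. Over the same 6 means, the genes outside the group most like S100a8 were Tnrc18 (r 0.986), the intermediate filament gene Vim (0.977), Wdr89 (0.970), S100a11 (0.960) and the translation factor gene Eif3k (0.960). Those most like Ltf were Mcf2l (0.997), Vps51 (0.990), the RNA-binding Msi2 (0.988), Padi4, which citrullinates histones in neutrophils (0.987), and Ptpre (0.984). Those most like Mpo were Spon1 (0.989), Crispld2 (0.986), Pi16 (0.985), Ctsg (0.984) and the carbonic anhydrase Car2 (0.981). Several of these had almost no signal: the group means of Tnrc18 ran from 7.37 to 7.52, of Mcf2l from 7.38 to 7.71, of Spon1 from 7.33 to 7.54 and of Crispld2 from 7.35 to 7.64. Those of Padi4 ran from 7.31 to 7.73, and it was tested because it was high with DEN.

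The genes around the alarmins were looked at by role. Of 9 receptors and partners of calprotectin and lipocalin 2, 5 rose and 1 fell in hepatocytes, 2 rose and 3 fell in macrophages and 0 passed in SEC. In hepatocytes 31.7% of all genes tested were called higher and 36.0% lower, in macrophages 18.6% and 24.3%, and in SEC 2.56% and 0.995%. The macrophage counts of this list were not far from those shares, and the same shares apply to the S100 genes below. Tlr4, the calprotectin receptor, rose by 0.35 ± 0.05, at least 1.23-fold, in hepatocytes and fell by 1.32 in macrophages, and its partner Ly96 rose by 0.50 ± 0.08 and fell by 1.56. The co-receptor Cd14 rose by 4.16 ± 0.07 in hepatocytes and 1.44 ± 0.07 in macrophages. The lipocalin 2 receptor Slc22a17 was below background in both hepatocyte groups and fell by 0.52 in macrophages. Tlr4, Ly96 and Cd14 thus rose with the alarmins in the hepatocyte preparation, Tlr4 only slightly and from below background. In macrophages Cd14 rose with the alarmins while Tlr4 and Ly96 fell. Of 8 other S100 genes measured, 5 rose and 1 fell in hepatocytes, 5 rose and 1 fell in macrophages and 1 rose in SEC. S100a6 rose by 4.22 ± 0.08, 2.08 ± 0.08 and 0.78 ± 0.08 in hepatocytes (at least 18.0-fold, from below background), macrophages and SEC, and S100a11 by 4.19 ± 0.08 in hepatocytes and 1.94 ± 0.08 in macrophages.

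Transcription factors of the granulocyte lineage showed no common direction. Of 8 measured, 3 rose and 2 fell in hepatocytes, 5 rose and 2 fell in macrophages and 0 passed in SEC. Of all genes tested, 31.7% were called higher and 36.0% lower in hepatocytes, 18.6% and 24.3% in macrophages and 2.56% and 0.995% in SEC. Since 1 of the 8 was tested because it was high with DEN, the counts are a description. Cebpe, which drives specific granule genes, fell by 0.47 in hepatocytes, where untreated levels of 8.43 were above those of DEN (7.96), and rose by 0.32 ± 0.11 in macrophages, at least 1.21-fold (adjusted p = 0.0308). Gfi1, a repressor needed for neutrophil maturation, was below background in both hepatocyte groups (0.13 ± 0.05) and rose by 0.50 ± 0.05 in macrophages. Cebpb, the factor of emergency granulopoiesis, which hepatocytes also use, rose by 2.15 ± 0.05 in hepatocytes and 0.93 ± 0.05 in macrophages, while Cebpa fell by 1.79 and by 0.57.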

How the data were processed

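RNA of 12 preparations (6 groups, 2 arrays each) was hybridised to Illumina mouse bead arrays from biotin-labelled cRNA, per the labels' protocols. The deposited values are log2 intensities, as read from their range, and were processed by the authors with lumi, per the submitters' processing notes, with no version, background step or transform stated. The arrays share 1 distribution (minimum 7.19, median 7.41, maximum 15.19), so that dim signals are compressed against a floor. The deposited non-normalized table holds 24 columns of per-sample values, 12 of them signals, whose names match no label, and it was not used.

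A single gene symbol was found for 34885 of the 45281 probes, more than 1 for 18 and none for 10378. The names came from the GRCm38.p6 gene table by Entrez ID (34807) or accession (11), or from the platform annotation (67). A probe was above background on an array if it exceeded the 95th percentile of 1501 olfactory and vomeronasal receptor probes, and probes above background on each array of some group were kept. This left 24155 probes and, with the probe of highest mean per gene, 12462 genes. Each array had 14260 to 21552 probes above background, and replicates correlated across the 12462 genes with r from 0.991 to 0.998. Of the 9 genes, 8 passed through an untreated group as well, while Mpo passed only through the DEN groups and so had to differ.

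A linear model with 6 group means was fitted to the deposited log2 values (limma 3.58.1, R 4.3.3, lmFit and eBayes, 6 residual degrees of freedom). Tests were two-sided, p-values were Benjamini-Hochberg adjusted across all 12462 genes with 0.05 as the threshold, and the code was tested on simulated data. Promoters came from RefSeq, and figures were drawn with Python 3.11.15 and matplotlib 3.10.9. The genes, lists and tests were chosen with earlier results of these data known. Of each list the text names its counts and up to 4 genes past the threshold with the largest change in a cell type, and Prtn3, Ctsg, Ly6g, Cxcr2, Csf3r, Mmp8, Mmp9, Cebpe, Gfi1, Tlr4, Ly96 and Slc22a17 whatever their result. Ms4a3 and Wfdc21 were named after their values were seen. Alternatives were other filters, cyclic loess within each cell type, background subtraction (floor 16), the mean of all probes, a trended and robust prior, only the arrays of a cell type, leaving out each array and the replicate number as a block. Deviations of same-numbered arrays from their group means correlated between -0.06 and 0.08. This cannot tell whether same-numbered arrays share animals, since the spread between replicates may be technical. The main fit did not pair them.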

Additional observations from a re-analysis of the deposited data

Results flagged for a closer look

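A test of the difference itself (an interaction term in limma, Benjamini-Hochberg adjusted over all genes) found the DEN change to differ between cell types for these genes. Values are log2 differences of the DEN changes, and those in which both changes were rises describe unequal rises.

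The change in hepatocytes minus that in macrophages was 3.84 for S100a8 (adjusted p = 1.08e-09), 2.75 for S100a9 (1.48e-07), 2.28 for Mpo (3.34e-09), 0.84 for Elane (7.82e-06) and 0.47 for Ltf (0.000911), which was lost and turned with both Ltf probes averaged (-0.0291, 0.726). It was -3.00 for Retnlg (1.24e-10) and -2.03 for Ngp (4.63e-08).

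Against SEC, the change in hepatocytes was larger by 3.58 for S100a8 (adjusted p = 2.08e-09), 3.29 for Ltf (3.15e-10), 3.24 for Mpo (3.34e-10), 3.02 for S100a9 (7.1e-08), 2.83 for Lcn2 (3.01e-09), 2.45 for Camp (2.52e-09), 1.32 for Elane (1.96e-07), 0.77 for Ngp (0.000121) and 0.76 for Retnlg (5.39e-06).

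The change in macrophages exceeded that in SEC by 3.76 for Retnlg (adjusted p = 1.16e-10), 2.81 for Ltf (2.62e-09), 2.80 for Ngp (1.26e-08), 2.78 for Lcn2 (1.09e-08), 2.62 for Camp (4.79e-09), 0.96 for Mpo (1.09e-05) and 0.48 for Elane (0.0013). The untreated level lay below background in hepatocytes for 7 of the genes (all but Lcn2 and Elane), in macrophages for Mpo and Elane and in SEC for Mpo, so those changes have only a lower bound, and the differences that use them are less certain.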

How the results depend on the processing

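The rises of all 9 genes in hepatocytes and in macrophages, and of the 8 in SEC, kept their direction and their call in every setting run. With the replicate block, 9, 9 and 8 genes rose, and no call changed. The deposited values carry no depth, and 2 arrays per group limit the precision. When an array is left out, its group has 1 array, which is assumed to vary like the others.

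Elane in SEC passed with cyclic loess (adjusted p = 0.0443), background subtraction (change 1.48, 0.0207), the mean of all probes (0.0466), only the SEC arrays (0.0121) and in 6 settings without an array of another cell type (0.0351 to 0.048). With background subtracted, differences near background turned or vanished: the interaction of hepatocytes with macrophages was -0.13 for Lcn2 and 0.82 for Camp (adjusted p = 0.00646), the 3 untreated differences of Ngp, and those of Mpo and Elane between macrophages and SEC, were 0.00, and 5 genes differed between untreated macrophages and SEC in place of 3. With the mean of all probes, Ltf had an interaction of -0.0291, a difference of -0.12 between the DEN hepatocytes and macrophages and of -0.0152 between untreated macrophages and SEC, and Mpo differed by 1e-04 between untreated hepatocytes and macrophages and by -0.0047 between macrophages and SEC. With cyclic loess, Mpo differed by 0.0037 between untreated hepatocytes and SEC. The Ltf difference between DEN hepatocytes and DEN macrophages lost its call with background subtracted (0.284, adjusted p = 0.0804).

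The small untreated differences of Ltf, Camp and Lcn2 against hepatocytes lost their call in some settings. Leaving out each array in turn, the number of genes that differed between untreated hepatocytes and macrophages, and between untreated hepatocytes and SEC, ranged from 3 to 5. It was 3 without either the first untreated hepatocyte array or the second untreated macrophage array in the former case, and without that hepatocyte array or either untreated SEC array in the latter. The Lcn2 interaction of hepatocytes with macrophages ranged from -0.0638 to 0.165, and differences between untreated cell types from -0.0427 to 0.0295 (Mpo, hepatocytes and SEC), -0.0229 to 0.0157 (Ngp, macrophages and SEC) and -0.0066 to 0.0656 (Mpo, macrophages and SEC). Without the first DEN macrophage array Lcn2 was higher in DEN hepatocytes than macrophages (0.24, adjusted p = 0.0204) and the S100a8 change was smaller in macrophages than in SEC (-0.42, 0.00967), and without the second the S100a9 change was larger (0.53, 0.00141) and the Camp interaction passed (-0.25, 0.0393). The cause of these changes was not tested.

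Over all genes, the calls in SEC moved most: 124 genes were lower, against 336 with only the SEC arrays, 223 without either DEN hepatocyte array, 74 with cyclic loess and 46 to 56 without an SEC array.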
